A study of Mus musculus with 6 samples.

Results

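The sites described here are the places where wild-type estrogen receptor alpha (ERα) was called on mouse chromatin after both of 2 antiestrogens, and where the activation function 2 (AF-2) mutant receptor was called after neither. They were chosen by the deposited peak lists themselves. The peaks of all 6 lists were merged wherever they overlapped by 1 bp, and a region was kept if it held a peak of WT ICI and of WT Tam and none of Af2KI ICI or Af2KI Tam. The vehicle lists played no part in the choice. This left 1976 of 65146 merged regions, or 3.11% of the 63548 regions with a ligand peak. They are called WT-only sites below, although 30 of them held a peak of the Af2KI Veh list.

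ERα is a nuclear receptor that binds DNA at estrogen response elements or through other DNA-bound factors. AF-2 is the surface in its ligand-binding domain through which it recruits coactivators once an agonist is bound. ICI (fulvestrant, ICI182780) is a steroid that blocks the receptor and leads to its degradation. Tamoxifen (Tam) belongs to the triphenylethylenes, has no steroid skeleton, and is known as an antagonist in breast and an agonist in the rodent uterus. In the uterus, ERα acts in the epithelium, the stroma and the smooth muscle. Peaks from whole uterus do not tell these apart, and fewer cells of a type and less receptor per cell cannot be told apart either.

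The study compared ERα ChIP-seq in uteri of ovariectomized female mice on a C57BL/6J background, aged 12 weeks, which were AF-2 mutant (AF2ERKI, in the titles Af2KI) or WT littermates. In each genotype, mice received ICI at 2 mg/kg, Tam at 2 mg/kg, or DMSO (50 µl) as vehicle (Veh), and uteri were taken after 1 h. The 6 groups were thus Af2KI ICI, Af2KI Tam, Af2KI Veh, WT ICI, WT Tam and WT Veh. Each was 1 library from a pool of 6 mice, so no comparison below has a replicate behind it. The meaning of E1h, a code in every title, is not explained by the labels. Intervals are exact (Clopper-Pearson) 95% binomial intervals and cover counting error only, not the spread between mice or libraries. The lists give the position of each peak and no height, and read depth is unknown, so a site missing from a list may still have been bound.

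Every WT-only site was made of 1 WT ICI peak and 1 WT Tam peak. The 1976 sites took up 7.46% of the 26482 WT ICI peaks (7.15 to 7.78) and 5.29% of the 37327 WT Tam peaks (5.07 to 5.53). The Af2KI ICI list held 45837 peaks and the Af2KI Tam list 36538, of which, by the rule, 0 lay at these sites. Of all 19162 regions where both WT ligand lists had a peak, 10.3% were WT-only. The mirror class, regions with both mutant ligand peaks and no WT ligand peak, is called mutant-only sites below. It was larger, with 6905 regions, or 22.1% of the 31315 regions where both mutant ligand lists had a peak. Of all 63548 regions with a ligand peak, mutant-only sites made up 10.9% and WT-only sites 3.11%. Each of these shares depends on what the ligand lists of the other genotype hold. The ligand lists differ in length, with WT ICI the shortest. The effect of list length on these shares was not tested. WT-only sites were narrow, with a median width of 225 bp (quartiles 211 and 246, range 200 to 463), where a single deposited peak was 200 bp wide.

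The edge of the rule was thinly populated. At 19 WT-only sites, a mutant ligand peak lay at a gap of 50 bp or less. The rule left out 17186 regions with both WT ligand peaks. In 22 of them, the largest overlap between a mutant and a WT ligand peak was 1 to 50 bp. Another 2 were left out through a chain of peaks with no direct overlap. The median of the largest overlap in each region left out was 195 bp of the 200 bp. Few sites thus lay close to the limit of the rule on either side.

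The vehicle lists, which the rule did not use, show how often these sites carried a called ERα peak after vehicle, in separate pools of mice. Af2KI Veh peaks lay at 30 of the 1976 sites, or 1.52% (1.03 to 2.16), and WT Veh peaks at 107, or 5.41% (4.46 to 6.51). Over all regions with a ligand peak the shares were 5.87% for Af2KI Veh and 5.21% for WT Veh. WT-only sites therefore held WT Veh peaks about as often as ligand regions in general, and Af2KI Veh peaks less often, with an interval that stayed below the general share. By class, 23 sites held an Af2KI Veh peak alone, 100 a WT Veh peak alone, 7 a peak of both, and 1846 neither. As a share of each vehicle list, WT-only sites took up 0.597% of the 5027 Af2KI Veh peaks (0.403 to 0.851) and 2.88% of the 3712 WT Veh peaks (2.37 to 3.47).

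The mutant-only sites gave the opposite pattern. An Af2KI Veh peak lay at 9.41% of them (8.73 to 10.1) and a WT Veh peak at 1.81% (1.51 to 2.15). Sites that both genotypes used with either ligand, the 15144 regions of all 4 ligand lists, had an Af2KI Veh peak at 8.60% (8.16 to 9.06) and a WT Veh peak at 14.2% (13.6 to 14.8). In both one-genotype classes, the vehicle list of the same genotype was thus present more often than that of the other, and the intervals did not overlap. The difference cannot be tested over samples, since each list is 1 library.

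Finding a site with both ligands went with a higher share of vehicle peaks of the same genotype than finding it with 1. Among regions of the WT ligand lists alone, WT Veh peaks lay at 5.41% of the WT-only sites with both ligands, at 1.49% of the 4228 regions of WT ICI alone (1.15 to 1.90), and at 1.32% of the 6298 regions of WT Tam alone (1.05 to 1.63). Af2KI Veh peaks did not follow that order, at 1.52%, 1.96% (1.57 to 2.43) and 1.27% (1.01 to 1.58) for the same classes. The pattern was not particular to WT. Af2KI Veh peaks lay at 9.41% of the mutant-only sites, 3.06% of regions of Af2KI ICI alone and 6.70% of those of Af2KI Tam alone. WT Veh peaks lay at 1.81%, 0.629% and 1.82% of these 3 mutant classes.

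Among regions with both WT ligand peaks, the vehicle shares also depended on which mutant list joined them. With Af2KI ICI but not Af2KI Tam (1600 regions), Af2KI Veh peaks lay at 1.63% (1.06 to 2.37) and WT Veh peaks at 6.69% (5.51 to 8.02), both with intervals overlapping those of the WT-only sites. With Af2KI Tam but not Af2KI ICI (442 regions), the shares were 10.9% (8.12 to 14.1) for Af2KI Veh and 10.2% (7.52 to 13.4) for WT Veh, both above those of the WT-only sites. In the vehicle lists, WT-only sites were therefore closer to sites that also had mutant ICI than to sites that also had mutant tamoxifen.

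**Figure D1:**
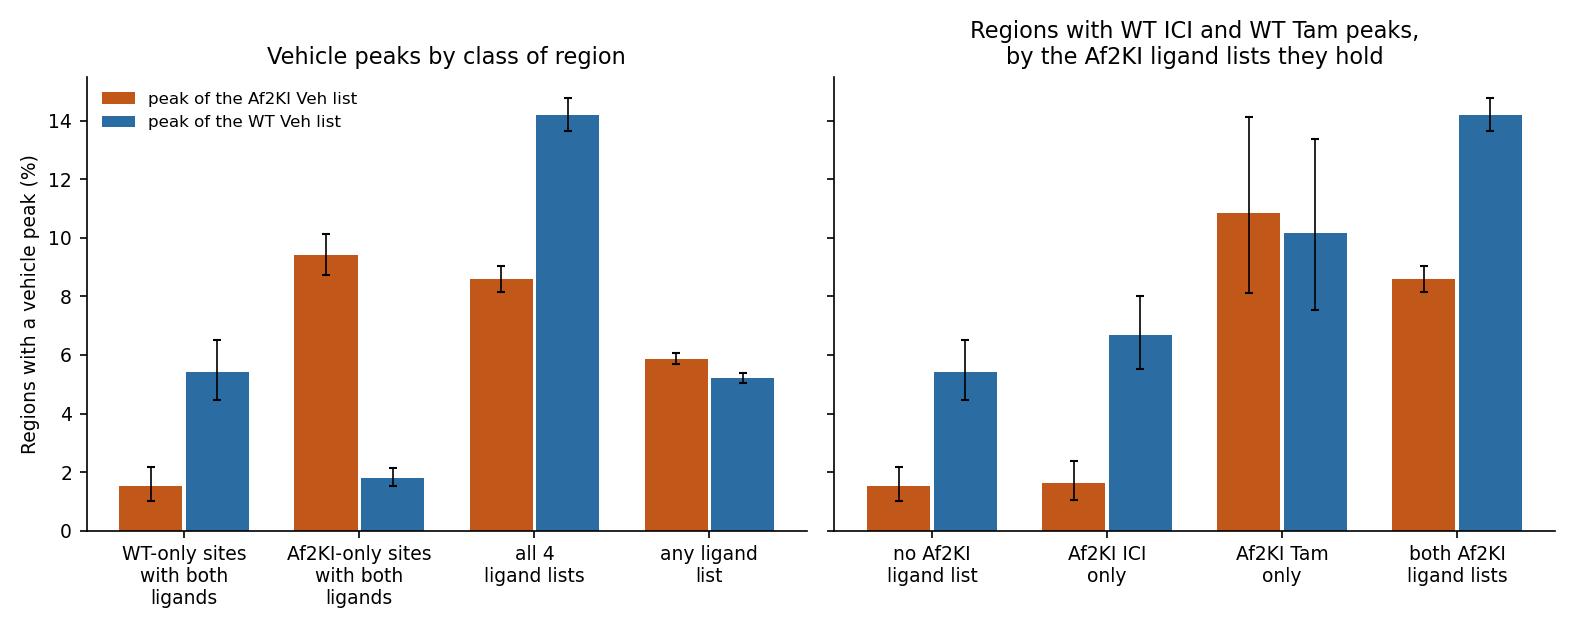
Share of regions (%) that hold a peak of the Af2KI Veh list or of the WT Veh list; bars are shares over regions and error bars are exact 95% binomial intervals for counting error, with 1 library per list. On the left, WT-only sites had 1.52% and 5.41% and mutant-only sites 9.41% and 1.81%; on the right, regions with both WT ligand peaks are split by the Af2KI ligand lists they also hold.

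Named examples, in mm9 coordinates counted from 1, show the classes. These are the first along the genome in each vehicle class and their strength is unknown. The site at chr1:19086979-19087193 held a WT ICI peak at 19086993 to 19087192, a WT Tam peak shifted by 1 bp and a WT Veh peak at 19086979 to 19087178, and the nearest mutant ligand peak was 1411 kb away. The next site with a WT Veh peak alone, chr1:24179522-24179798, had its ICI and Tam midpoints 30 bp apart and lay 72.2 kb from a mutant ligand peak. The third, chr1:30742265-30742471, had them 5 bp apart at a gap of 27.7 kb. All 3 were called in every WT list.

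Sites with an Af2KI Veh peak alone began with chr2:70347053-70347411, 359 bp wide. There, the mutant vehicle peak ran from 70347212 to 70347411 and the WT Tam peak from 70347053 to 70347252, so that only their ends overlapped. The WT ICI peak lay between them, at 70347113 to 70347312, and overlapped both. At chr2:144429165-144429416 and chr2:162378845-162379183, the midpoints of WT ICI and WT Tam were 52 and 37 bp apart. All 3 lay within 50 kb of a mutant ligand peak. These are places where the mutant receptor was called after vehicle and not after either ligand. There were 30 of them in all, including the 7 that also had a WT Veh peak.

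The 7 sites with both vehicle peaks held the most peaks, with 4 each. The first was chr2:9309795-9310027, at which all 4 peaks lay within 233 bp and the nearest mutant ligand peak was 36.2 kb away. The others named by the rule were chr6:36795320-36795582, with a gap of 35.1 kb, and chr7:4899494-4899762, with a gap of 4.28 kb. Sites without a vehicle peak began with chr1:4966580-4966796, where the ligand midpoints were 17 bp apart. It was followed by chr1:5009488-5009774 and chr1:5012817-5013051, a pair of sites about 63.7 and 60.4 kb from the nearest mutant ligand peak.

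Within a WT-only site, ICI and tamoxifen placed the receptor close together, but less closely than at regions of all 4 ligand lists. The midpoints of the WT ICI and WT Tam peaks were a median of 24 bp apart at WT-only sites (quartiles 11 and 45, n = 1976), against 16 bp at regions of all 4 ligand lists (quartiles 7 and 30, n = 15141). Order-statistic 95% intervals of these medians were 22 to 25 bp and 15 to 16 bp. Midpoints within 25 bp of each other were found at 52.6% of WT-only sites and 69.3% of regions of all 4 lists, and midpoints more than 100 bp apart at 5.72% and 2.56%. Sites that only 1 mutant ligand list shared lay on either side of the WT-only sites. With Af2KI ICI but not Af2KI Tam the median was 20 bp (19 to 21, n = 1600), and with Af2KI Tam but not Af2KI ICI it was 30.5 bp (27 to 35, n = 442). The wider spacing was thus not particular to sites without a mutant ligand peak. Between Af2KI ICI and Af2KI Tam, midpoints were 17 bp apart at mutant-only sites (quartiles 8 and 32, n = 6904), against 10 bp at regions of all 4 lists (quartiles 5 and 20, n = 15136). The rule asks for WT ICI and WT Tam peaks in 1 merged region, which limits these distances but does not require a direct overlap. The largest WT ICI to WT Tam distance was 215 bp at WT-only sites. It was 317 bp at regions of all 4 ligand lists, where mutant ligand peaks can also join a region. Peaks of 1 list were never closer than 261 bp from start to start. Peak height was not tested as a factor, since the lists hold none. The mean signed distance, ICI minus Tam, was -0.46 bp at WT-only sites.

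WT Veh peaks at WT-only sites lay close to the ligand peaks, a distance that the merge itself limits. At the 107 WT-only sites with a WT Veh peak, its midpoint was a median of 24 bp from that of WT ICI (interval of the median 19 to 31) and 18 bp from that of WT Tam (13 to 27). At the 30 sites with an Af2KI Veh peak, its midpoint was 65 bp from that of WT ICI (49 to 102) and 29 bp from that of WT Tam (15 to 65). For WT ICI these intervals did not overlap between the vehicle lists, and for WT Tam they did. The wider placing of Af2KI Veh was not particular to WT-only sites. At regions of all 4 ligand lists, its median distance from WT ICI was 42 bp, against 17 bp for WT Veh. There, Af2KI Veh was no nearer to its own genotype, at 31 bp from Af2KI ICI, 30 bp from Af2KI Tam and 30 bp from WT Tam. The median distance between WT ICI and WT Tam was 41 bp at the 23 sites with an Af2KI Veh peak alone (20 to 66), 52 bp at the 7 with both vehicle peaks (22 to 84), 18.5 bp at the 100 with a WT Veh peak alone (14 to 23) and 24 bp at the 1846 with neither (22 to 25). These intervals all overlapped, so no difference between the vehicle classes is drawn from them.

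**Figure D2:**
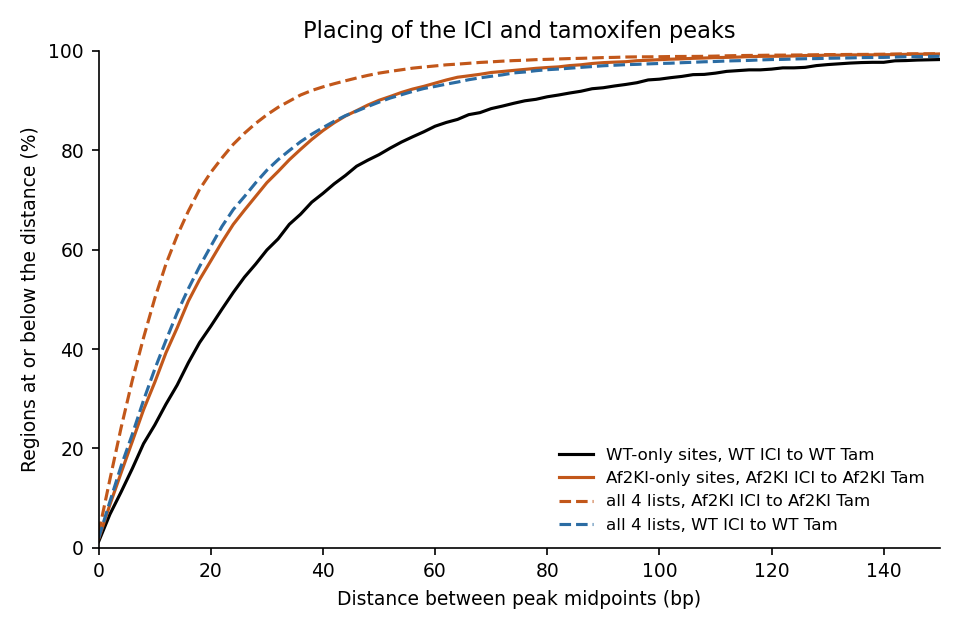
Cumulative share of regions (%) by the distance between the midpoints of the ICI and the tamoxifen peak (bp) of 1 genotype, at WT-only sites, mutant-only sites and regions of all 4 ligand lists. The line of the WT-only sites lies lowest, with a median of 24 bp, against 17 bp at mutant-only sites and 10 bp (Af2KI) and 16 bp (WT) at regions of all 4 lists.

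The median gap from a WT-only site to the nearest mutant ligand peak was 10.6 kb (quartiles 3.26 and 31.2 kb), against 9.80 kb for all 12502 regions of the WT ligand lists alone, which include the WT-only sites. It was 11.8 kb to the nearest peak of the Af2KI ICI list and 16.9 kb to that of the Af2KI Tam list, in lists of different length. A mutant ligand peak lay within 1 kb of 13.4% of the sites (11.9 to 15.0), against 16.5% of those 12502 regions. Within 10 kb the share was 48.7% at WT-only sites (46.5 to 51.0), 56.8% at regions of WT ICI alone (55.3 to 58.3) and 46.9% at regions of WT Tam alone (45.7 to 48.1). At 165 WT-only sites, or 8.35%, no mutant ligand peak lay within 100 kb, as at 4.38% of the regions of WT ICI alone and 7.95% of those of WT Tam alone. Within 10 kb, the interval of the WT-only sites overlapped that of WT Tam alone and lay below that of WT ICI alone. Mutant-only sites were nearer to the other genotype, with a median gap of 8.32 kb to a WT ligand peak and 4.27% of sites beyond 100 kb. The gap depends on the length of the list it is measured to, and these lists differ in length. WT-only sites were measured to mutant lists of 45837 (ICI) and 36538 (Tam) peaks. Mutant-only sites were measured to WT lists of 26482 (ICI) and 37327 (Tam) peaks. The effect of list length was not tested.

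At most of the sites closest to a mutant ligand peak, the region of that peak also held a WT ligand peak. The same was true in general: 32142 ligand regions held peaks of both genotypes and 18904 peaks of the mutant ligand lists alone. At 152 WT-only sites the gap was 500 bp or less. At 96 of these, the nearest mutant peak lay in a region that also held a WT ligand peak of its own: both WT ligands at 50, WT Tam alone at 34 and WT ICI alone at 12. At 39 of the 152 sites (25.7%, 18.9 to 33.4), that neighbour was a region of all 4 ligand lists. At the other 56 sites (36.8%, 29.2 to 45.0), the neighbouring region had no WT ligand peak, so that the genotypes had peaks next to each other and not on each other. At mutant-only sites within 500 bp of a WT ligand peak (711 sites), such side-by-side placing was seen at 25.9% (22.7 to 29.3), an interval that just touches that of the WT-only sites. For that mirror, 12502 ligand regions held peaks of the WT ligand lists alone, beside the 32142 with both genotypes. Both splits lay near the general makeup and are not read as a trait of the closest sites.

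WT Veh peaks were found at WT-only sites more often the farther the sites lay from mutant ligand peaks. The bins of this split were chosen after the data were seen. A WT Veh peak lay at 1 of 152 sites with a gap under 500 bp (0.658%, 0.0167 to 3.61), at 16 of 480 sites at 500 bp to 5 kb (3.33%, 1.92 to 5.36), at 59 of 994 at 5 to 50 kb (5.94%, 4.55 to 7.59) and at 31 of 350 at 50 kb or more (8.86%, 6.10 to 12.3). Af2KI Veh peaks showed no such order, with 1, 9, 17 and 3 sites in the same bins (0.658%, 1.88%, 1.71% and 0.857%). At the 152 closest sites, vehicle peaks lay beside the site more often than on it. Within 1 kb of the 152 closest sites there was an Af2KI Veh peak at 15 and a WT Veh peak at 22 (14.5%), and at 18 of the 152 the region with the nearest mutant peak held a WT Veh peak itself.

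A rise of the WT Veh share with distance was not particular to WT-only sites. At mutant-only sites, in the same bins of the gap to a WT ligand peak, it was 1.13%, 0.987%, 1.90% and 4.18%. When sites were split by the gap to any other ligand region, WT Veh shares of WT-only sites were 3.27%, 4.15%, 6.42% and 7.53% from the nearest to the farthest bin. At mutant-only sites they were 0.811%, 0.857%, 2.57% and 6.36%, and at regions of all 4 ligand lists 12.3%, 13.3%, 15.4% and 17.9%. WT-only sites were the more isolated class, with a median gap of 6342 bp to the next ligand region, against 3872 bp for mutant-only sites and 4007 bp for regions of all 4 lists.

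**Figure D3:**
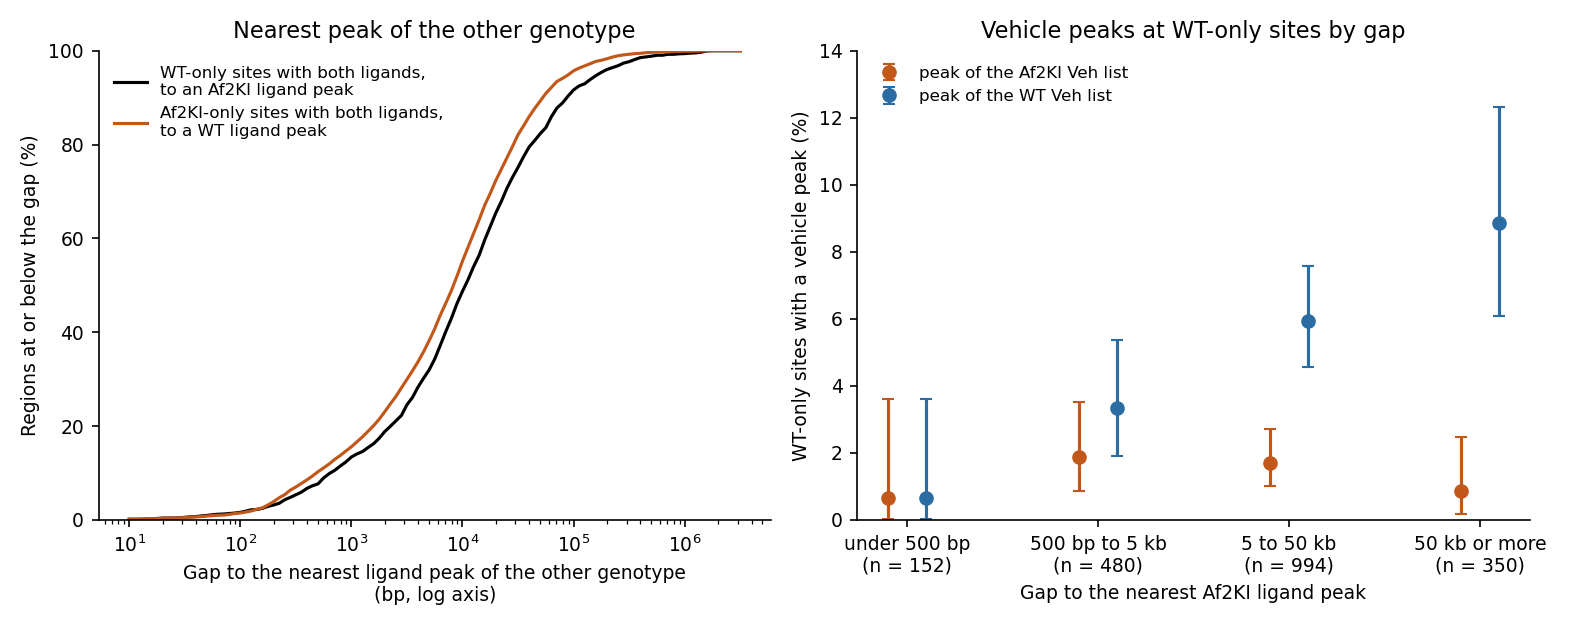
On the left, cumulative share of sites (%) by the gap to the nearest ligand peak of the other genotype (bp, log axis), for WT-only and mutant-only sites, with medians of 10.6 and 8.32 kb. On the right, share of WT-only sites (%) with a peak of the Af2KI Veh or the WT Veh list in 4 bins of that gap, with exact 95% binomial intervals; the WT Veh share runs from 0.658% in the nearest bin to 8.86% in the farthest, while Af2KI Veh lies between 0.658% and 1.88%.

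WT-only sites had regions of their own genotype next to them at a higher share than such regions had among all ligand regions. The nearest ligand region of a WT-only site was one of the WT ligand lists alone at 32.0% (30.0 to 34.1), while such regions made up 19.7% of all ligand regions. It was one of the mutant ligand lists alone at 21.0% (19.2 to 22.8), against 29.7% of all. For regions of all 4 lists, the nearest region was one of the WT alone at 17.5% (16.9 to 18.1) and one of the mutant alone at 28.3% (27.6 to 29.0). Mutant-only sites likewise had their own genotype next to them more often, with 39.6% beside a region of the mutant alone (38.4 to 40.7). Of the WT-only sites, 150 (7.59%) had another WT-only site as nearest region and 326 (16.5%) a site of WT Tam alone.

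Of the WT-only sites, 400 (20.2%, 18.5 to 22.1) shared a 100 kb window with another. Windows of 100 kb with a WT-only site numbered 1762, of which 1576 held 1 site, 161 held 2, 22 held 3 and 3 held 4. The 3 windows with 4 sites differed in what surrounded them. On chromosome 1 at 121000001 to 121100000, the 4 sites lay among 6 regions of all 4 ligand lists, and the window held 8 Af2KI ICI, 6 Af2KI Tam, 10 WT ICI and 14 WT Tam peaks. On chromosome 7 at 140900001 to 141000000, they lay among 6 regions of WT Tam alone, with 4 Af2KI ICI, 2 Af2KI Tam, 4 WT ICI and 13 WT Tam peaks. Every WT ICI peak of that window was at a WT-only site.

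The window on chromosome 10 at 117900001 to 118000000 was the emptiest of mutant peaks. It held 2 Af2KI ICI, 1 Af2KI Tam and 0 Af2KI Veh peaks, against 6 WT ICI, 7 WT Tam and 2 WT Veh peaks. Its WT-only sites were at 117903579 to 117903823, which also held a WT Veh peak, at 117916497 to 117916733, at 117944491 to 117944715 and at 117998641 to 117998848. The first lay 76.2 kb from a mutant ligand peak and the last 2.36 kb.

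The 3 sites farthest from any mutant ligand peak were all called in the WT Veh list too. They were chr5:85668596-85668839, at a gap of 1617 kb, and chr6:69106231-69106451 and chr6:69134940-69135151, at gaps of 1553 and 1525 kb. In the last of these, the WT ICI and WT Tam midpoints were 2 bp apart. Both chromosome 6 sites belong to 1 stretch of 2607 kb, with 24 neighbouring regions of the WT ligand lists alone and 0 peaks in each of the 3 mutant lists. Whether this locus differs between the pools apart from ERα was not tested. The stretch held 8 WT-only sites, 4 of them with a WT Veh peak. Without them, the WT Veh share was 5.23% over all WT-only sites and 7.89% (5.27 to 11.3) at gaps of 50 kb or more.

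By chromosome, WT-only sites made up between 2.62% of ligand regions on chromosome 11 (2.15 to 3.15, 108 sites) and 4.12% on chromosome 12 (3.41 to 4.92, 114 sites) among the autosomes. They were scarcest on the X chromosome, with 22 of 1335 ligand regions, or 1.65% (1.04 to 2.48), against 3.14% on the autosomes (3.0 to 3.28). Mutant-only sites and regions of all 4 lists made up 10.2% (8.62 to 11.9) and 21.6% (19.4 to 23.9) of the X-linked ligand regions, against 10.9% and 23.9% of the autosomal ones. The X chromosome thus held about the general share of those classes and a lower share of WT-only sites, in 1 library per list. One WT-only site lay on an unplaced contig.

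**Figure D4:**
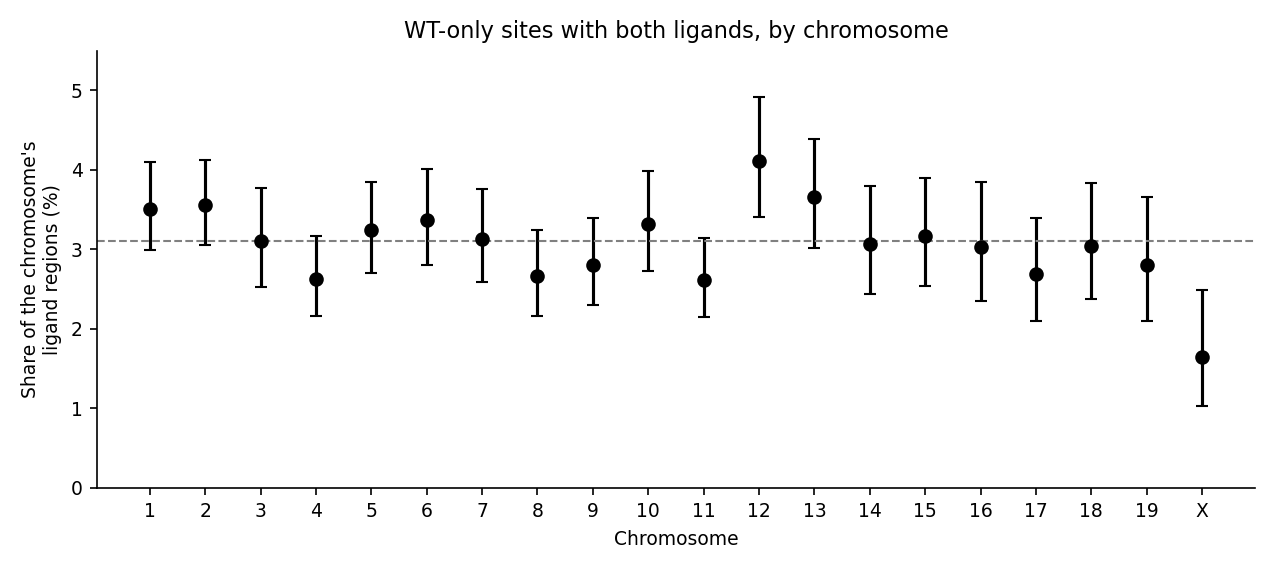
WT-only sites as a share (%) of all ligand regions on each chromosome, with exact 95% binomial intervals for counting error; the dashed line is the share over all chromosomes, 3.11%. The X chromosome is lowest at 1.65% and chromosome 12 highest at 4.12%.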

How the data were processed

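The submitters' processing notes list HOMER 4.10.3, Bowtie2 2.1.0, bedtools 2.24.0, Picard and SAMtools, without their roles, and mouse build mm9. Input DNA was also made into libraries, per the labels' protocols. The peak caller, its threshold and the use of input were not given in the sources used here. The authors deposited 1 list of 200 bp peaks per library, whose values are other than measurements of strength: a chromosome, a start and an end. Threshold and depth set what a list holds.

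Lists were merged at 1 bp overlap with pandas 2.3.3 and numpy 2.4.6 in Python 3.11.15, and intervals came from scipy 1.17.1. Region classes and gaps were tested on simulated data, and bedtools 2.31.1 gave the same regions, members and gaps (0 differed of 1976 gaps). Gaps run from edge to edge, and abutting peaks count as 0. With 1 library per group no test was made. The members and the classes compared were chosen with earlier results of these data known. Regions were named by rule: 3 windows with the most sites, the first 3 sites of each vehicle class, the 3 with the most peaks and the 3 farthest from a mutant ligand peak. No mm9 sequence or annotation was used here, so the planned motif, gene and transcription start results are not given.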

Additional observations from a re-analysis of the deposited data

How the results depend on the processing

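The number of WT-only sites ranged from 1711 to 1977 and the median distance between midpoints from 22 to 25 bp over 6 alternatives: merging at 100 bp overlap, merging across gaps of 200 bp, leaving out the vehicle lists, keeping chromosomes 1 to 19 and X, dropping sites with a mutant ligand peak within 1 kb, and direct overlap of the peaks. The vehicle shares stayed within their counting intervals under those 6. Counting vehicle peaks within 1 kb, chosen after seeing the data, gave 2.88% for Af2KI Veh and 7.49% for WT Veh. By gap to a mutant ligand peak, also chosen afterwards, the WT Veh share was 0.658%, 3.33% and 8.86% in the bins under 500 bp, 500 bp to 5 kb and 50 kb or more. The share of sites with a mutant ligand peak within 1 kb (13.4%) was 16.0% with merging at 100 bp overlap and 10.8% with merging across 200 bp, which by construction splits or joins near peaks. It was 7.69% at 500 bp and 48.7% at 10 kb. Leaving out the 8 sites of the longest run on chromosome 6, also chosen afterwards, gave 1.52% for Af2KI Veh and 5.23% for WT Veh. No paired analysis was possible because each group has 1 library. Depth per library is unknown and limits what absence from a list shows.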

Other observations

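Runs of neighbouring ligand regions held by 1 genotype alone were looked for after the data were seen, and no test was made. Along the chromosomes, 980 WT-only sites (49.6%) stood in a run of at least 2 neighbouring regions of the WT ligand lists alone. Of all 18904 regions of the mutant ligand lists alone, 56.5% stood in such a run of their own, and of all 12502 regions of the WT ligand lists alone, 44.5% did. The longest such run, on chromosome 6 at 67560479 to 70167193, held 24 regions over 2607 kb: 8 WT-only sites, 1 region of WT ICI alone and 15 of WT Tam alone. It had 0 peaks in each of the 3 mutant lists, against 9 WT ICI, 23 WT Tam and 5 WT Veh peaks. The next, on chromosome 16 at 39065966 to 41511146, held 13 regions with 3 WT-only sites, and another, on chromosome 13 at 50463738 to 50855781, held 12 with 3. The longest run of the mutant ligand lists alone, on chromosome 3 at 120189910 to 120497385, held 14 regions over 307 kb. The run on chromosome 6 contains both of the chromosome 6 sites that are among the 3 farthest from a mutant ligand peak. Whether the locus differs between the pools apart from ERα was not tested.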
